A study of Mus with 438 samples.

Results

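Hk1, Hk2, Pfkm, Pfkp, Aldoc, Gapdh, Eno2, Pkm, Ldha and Ldhb, 10 genes that encode enzymes or isozymes of glycolysis, were followed in single mouse cones and rods. They were chosen by name with earlier results of these data known, and all 10 are among the 10390 genes of the deposited expression table. The table holds 430 libraries, each made from 1 photoreceptor of C57BL/6 background that was picked by hand from dissociated retina. Control cones carried 1 copy of the Trb2Cre driver and the Ai6 fluorescent reporter (labelled Trb2Cre-het:Ai6), and came from dissected superior or inferior retina. At P2 there were 26 cells from superior and 30 from inferior retina, at P8 24 of each, at P21 24 of each, and at P60 26 and 21. Knockout cones (Trb2Cre-KO:Ai6) were collected at 2 months of age (50 superior and 48 inferior cells). Rods carried the tgNrl:gfp reporter, named for the rod gene Nrl and green fluorescent protein, and were collected at 2 months (29 cells, zone not given). Both are set against Trb2Cre-het:Ai6 cones of the same age, called 2m controls here (53 and 50 cells). Cones of both genotypes therefore carried Trb2Cre, a Cre driver named for the TRβ2 form of the thyroid hormone receptor gene Thrb, and no group without the driver was used. The labels name no animal, so each group of cells counts as 1 sample and cells are not replicates.

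Glycolysis turns glucose into pyruvate, and photoreceptors are known for running it at a high rate and releasing lactate even when oxygen is present. Hexokinase traps glucose inside the cell, phosphofructokinase commits it to the pathway, and aldolase splits the 6-carbon sugar. GAPDH, enolase and pyruvate kinase then carry it to pyruvate, and lactate dehydrogenase interconverts pyruvate and lactate. Several of these steps can be run by enzymes from different genes, called isozymes, which differ in their regulation and tissue use. Thrb is known in cones for driving M opsin, which mouse cones of the superior retina hold in the largest amount.

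Values are read counts scaled by the authors to the size of each library (CPM). No transcript lengths were at hand, so levels are compared between groups of cells and not between genes. Ranges over cells and the share of cells over 10 CPM are given with each result, and SDs are over cells. Whole reads could be recovered from the table, and depth per library ran from 897893 to 32636800 reads. The labels were checked first. In rods the 8 measured rod markers summed to at least 61680 CPM in every cell and the 9 cone markers to a median of 0.523 CPM, against cone marker medians of at least 5806 CPM in every cone group. Thrb was over 10 CPM in 33 of 98 knockout cones, against 73 of 103 in 2m and 42 of 47 in P60 controls. The table gives Thrb as 1 row and the sources used here do not say which part the knockout removes, so this row checks the label only in part. The M opsin gene Opn1mw was over 10 CPM in 5 of 98 knockout cones and in 94 of 103 2m control cones. P60 superior cells 3 and 14 (r = 0.995 across genes) differed by a chi-square of 1.87 for each degree of freedom, near sampling noise and against at least 347 in the 4 next most correlated pairs, and were counted as 1 cell, which leaves 400 cones and 29 rods. Cone markers were under 1000 CPM in 2 cone libraries, P2 superior cell 4 (31.2 CPM) and knockout superior cell 35 (274 CPM).

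The libraries were of 2 kinds, which touches every comparison of the adult groups. The kinds were defined after the data had been seen, from 20 genes outside the glycolytic lists that separated P60 from 2m controls. All P2, P8, P21 and P60 libraries were of the P60 kind, and all 2m control and rod libraries were of the 2m kind. For P60 and 2m controls this was nearly fixed by the choice of genes. Knockout superior cells 1 to 27 and inferior cells 1 to 26 were of the 2m kind, and superior cells 28 to 50 and inferior cells 27 to 48 of the P60 kind. Depth differed with the kind. Superior knockout cells had 11177800 to 22060800 reads in the 2m kind and 5942500 to 10919200 in the P60 kind. Inferior ones had 9098870 to 24906300 and 3970820 to 10798400 reads. With 20 genes each way in place of 10, 3 libraries moved to the 2m kind, P2 superior cells 4 and 10 and knockout superior cell 35. Among the members, Gapdh and Pkm followed the kind of library. In knockout cells of the P60 kind over those of the 2m kind, Gapdh was more than 2-fold higher in both zones (8.54% of 4495 genes) and Pkm lower (5.16% of genes). Gapdh ran from 68.8 to 694 CPM over knockout cells of the P60 kind (both zones), against 9.84 to 108 CPM in those of the 2m kind, so the ranges met only at their ends. Median Pkm in knockout cells of the P60 kind was 2200 (superior) and 2410 (inferior) CPM, against 4294 and 4987 CPM in the 2m kind, and in inferior cells the ranges did not meet (1361 to 3172 CPM, against 3434 to 9834 CPM). Pgk1 (phosphoglycerate kinase) and Eno1 (the general enolase) followed the kind of library in the direction of Pkm, opposite to Gapdh. Median Eno1 in knockout cells of the P60 kind was 357 (superior) and 418 (inferior) CPM, against 4128 and 3093 CPM in the 2m kind. The knockout is therefore compared below within each kind of library as well as over all cells. Gapdh, Pkm, Ldha, Eno1 and Aldoa have near-identical copies elsewhere in the genome, and how the authors counted reads that match several places is not given, so their levels are uncertain.

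**Figure D1:**
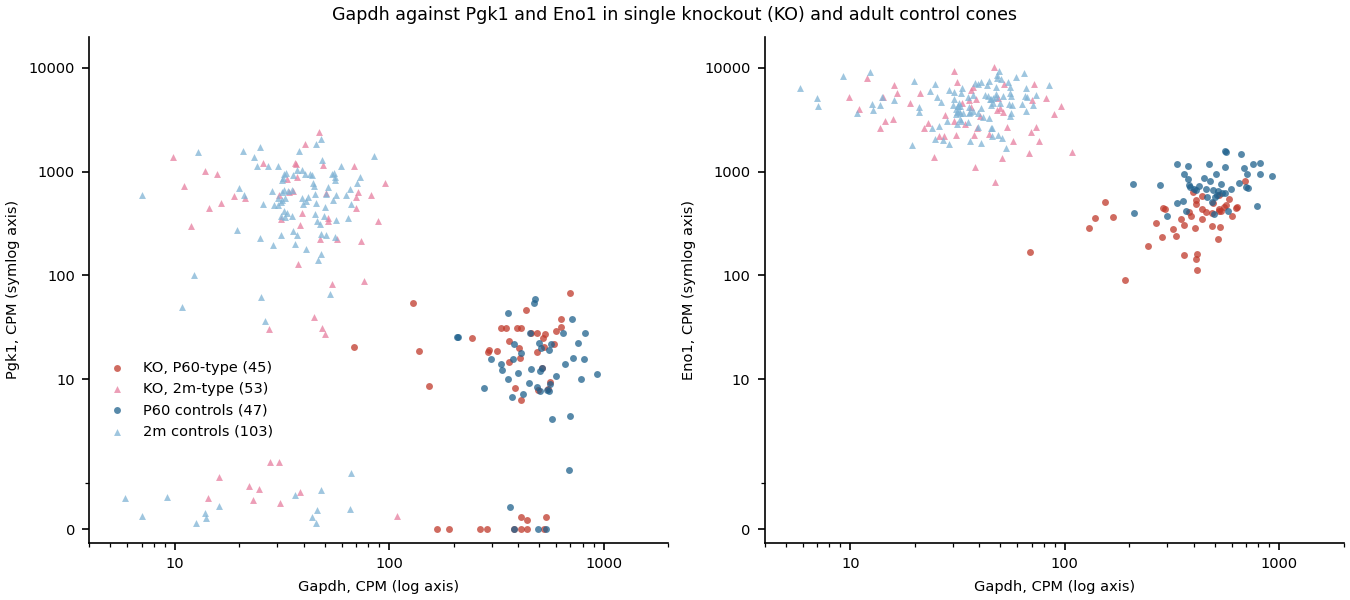
Each point is 1 knockout or adult control cone. Gapdh is on the log x axis, and Pgk1 (left) and Eno1 (right) on the y axes, all in CPM (the y axes are linear near 0 and logarithmic above 1). Knockout cells of the P60 kind (red circles) lie with P60 controls, with Gapdh medians of 404 CPM (superior) and 436 CPM (inferior). Knockout cells of the 2m kind (pink triangles) lie with 2m controls, with medians of 38.2 and 36.6 CPM.

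With age, control cones gained transcripts of both hexokinases and of aldolase C. Hk1, Hk2 and Aldoc met a rule of size, a 4-fold or larger rise over P2 in both zones and in both adult collections, P60 and 2m. 0 members fell by as much. The rule called 2.3% of 5729 genes higher (132 genes) and 2.76% lower (158 genes). The 3 of 10 members higher are a larger share than among all genes. The members were chosen with earlier results of these data known, so the shares are only described. With 1 group per age and zone there is no replicate and no test. On the log2 scale of (mean CPM + 1), the median of all genes was -0.34 (superior) and -0.46 (inferior) for P60 over P2, and -0.42 and -0.50 for 2m over P2.

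Hk2, the hexokinase whose level responds to growth and hormone signals in other tissues, showed the greatest rise of the members. It was over 10 CPM in 2 of 26 superior P2 cones and in 0 of 30 inferior ones, a count of 0 that allows a share of up to 10% (3 cells of 30). The highest P2 cells had 42.1 CPM (superior) and 2.95 CPM (inferior), and the median was 0 in both zones. At P8, 17 of 24 superior and 16 of 24 inferior cones were over 10 CPM, and the medians were 18.2 and 191 CPM. At P21 it was 20 of 24 in each zone, and at P60 24 of 26 and 19 of 21 cones. Its median at P60 was 281 CPM in superior cones (lowest 6.46, highest 926) and 312 CPM in inferior cones (3.31 to 1240). The mean rose by 6.74 (superior) and 8.20 (inferior) to P60 and by 5.42 and 6.95 to 2m, as log2 ratios. Of P60 cones, 19 of 26 superior and 21 of 21 inferior ones lay above the highest P2 cell of their zone. Of the single steps, P8 over P2 passed 2-fold in both zones (5.42 and 7.46), and P21 over P8 and P60 over P21 did not.

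Hk1, the constitutive hexokinase of neurons, went the same way from a higher start. At P2 it was over 10 CPM in 5 of 26 superior and 7 of 30 inferior cones, with 18 of 24 and 19 of 24 at P8, 20 and 18 of 24 at P21, and 24 of 26 and 21 of 21 at P60. Its mean CPM (superior, then inferior, with the SD over cells) was 56.0 ± 146 and 67.7 ± 156 at P2, 300.1 ± 308 and 297 ± 259 at P8, 588 ± 651 and 444 ± 486 at P21, and 685 ± 585 and 620.0 ± 387 at P60. The ranges overlapped at every age, since the highest P2 cells reached 581 and 541 CPM, and 12 of 26 superior and 12 of 21 inferior P60 cones lay above them. The log2 ratio over P2 was 3.59 and 3.18 at P60 and 3.41 and 2.66 in 2m controls. P8 over P2 passed 2-fold in both zones (2.40 and 2.12). Hk1 and Hk2 were the 2 members higher at this step, against 5.02% of 6499 genes, and 0 members were lower (7.77% of genes). From P8 to P21, 0 members were higher (2.81% of genes) or lower (6.92%), and from P21 to P60, 0 were higher (1.94%) or lower (2.06%).

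Aldoc, the aldolase of brain and retina, had its P21 level in superior cones near that of P60 and in inferior cones near that of P2. Median CPM (superior, then inferior) was 0 and 0.284 at P2, 144 and 0 at P8, 402 and 0 at P21, and 394 and 264 at P60. Cells over 10 CPM were 8 of 26 and 12 of 30 at P2, 14 and 10 of 24 at P8, 20 and 9 of 24 at P21, and 24 of 26 and 20 of 21 at P60. The highest P2 cells, with 823 and 368 CPM, lay inside the P60 ranges. The log2 ratio over P2 was 2.63 in each zone at P60, and 2.42 (superior) and 2.66 (inferior) in 2m controls. Neither the step from P8 to P21 (1.93 and 0.40) nor that from P21 to P60 (0.17 and 1.94) passed 2-fold in both zones.

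The remaining members changed less. Pfkp, the platelet-type phosphofructokinase, and Pkm, which encodes the main pyruvate kinase of adult tissues outside liver and blood, joined the 3 at a 2-fold threshold (4.63% of genes higher), where 0 members were lower (11.1% of genes). Pkm was found in every P2 cone, and its median CPM (superior, then inferior) was 1083 and 1186 at P2, 1791 and 1854 at P8, 2060 and 2331 at P21, and 2743 and 3101 at P60. Its ranges overlapped (827 to 5191 CPM at P60, against 455 to 1918 CPM at P2, in superior cones), with 21 of 26 superior and 19 of 21 inferior P60 cones above the highest P2 cell. Pfkp had log2 ratios of 2.34 and 1.82 at P60 and 2.48 and 3.32 in 2m controls. In superior cones at P2, P2 superior cell 4 alone held 332 CPM of it, and without that library the P2 mean was 16.9 CPM in place of 29.1 CPM. Pfkm, the muscle-type enzyme, had 0.69 and 0.55 at P60 and 1.59 and 1.56 in 2m controls.

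Eno2, the neuron-specific enolase, was high at P2 already. It was over 10 CPM in 20 of 26 superior and 26 of 30 inferior P2 cones, and its ratios to P60 were 0.74 and 0.96. Ldha, the lactate dehydrogenase subunit known for making lactate, was the one member with negative ratios to P60 (-0.46 and -0.30), and those to 2m were 0.18 and 0.34. Its median CPM (superior, then inferior) was 2024 and 1708 at P2, 2431 and 1699 at P8, 1661 and 1580 at P21, and 1365 and 1386 at P60. Ldhb, the subunit known in heart and other oxidative tissues, had mean CPM of 57.9 and 47.6 at P2, 101 and 61.8 at P60, and 166 and 156 in 2m controls, a P60 ratio of 0.79 and 0.37. Gapdh had 0.29 and 0.57 at P60, and -3.40 and -3.13 in 2m controls, whose libraries are of the other kind. The summed CPM of the 10 members averaged 4300 and 3943 at P2, 6062 and 5496 at P8, 6643 and 6009 at P21 and 7307 and 7462 at P60 (superior and inferior).

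**Figure D2:**
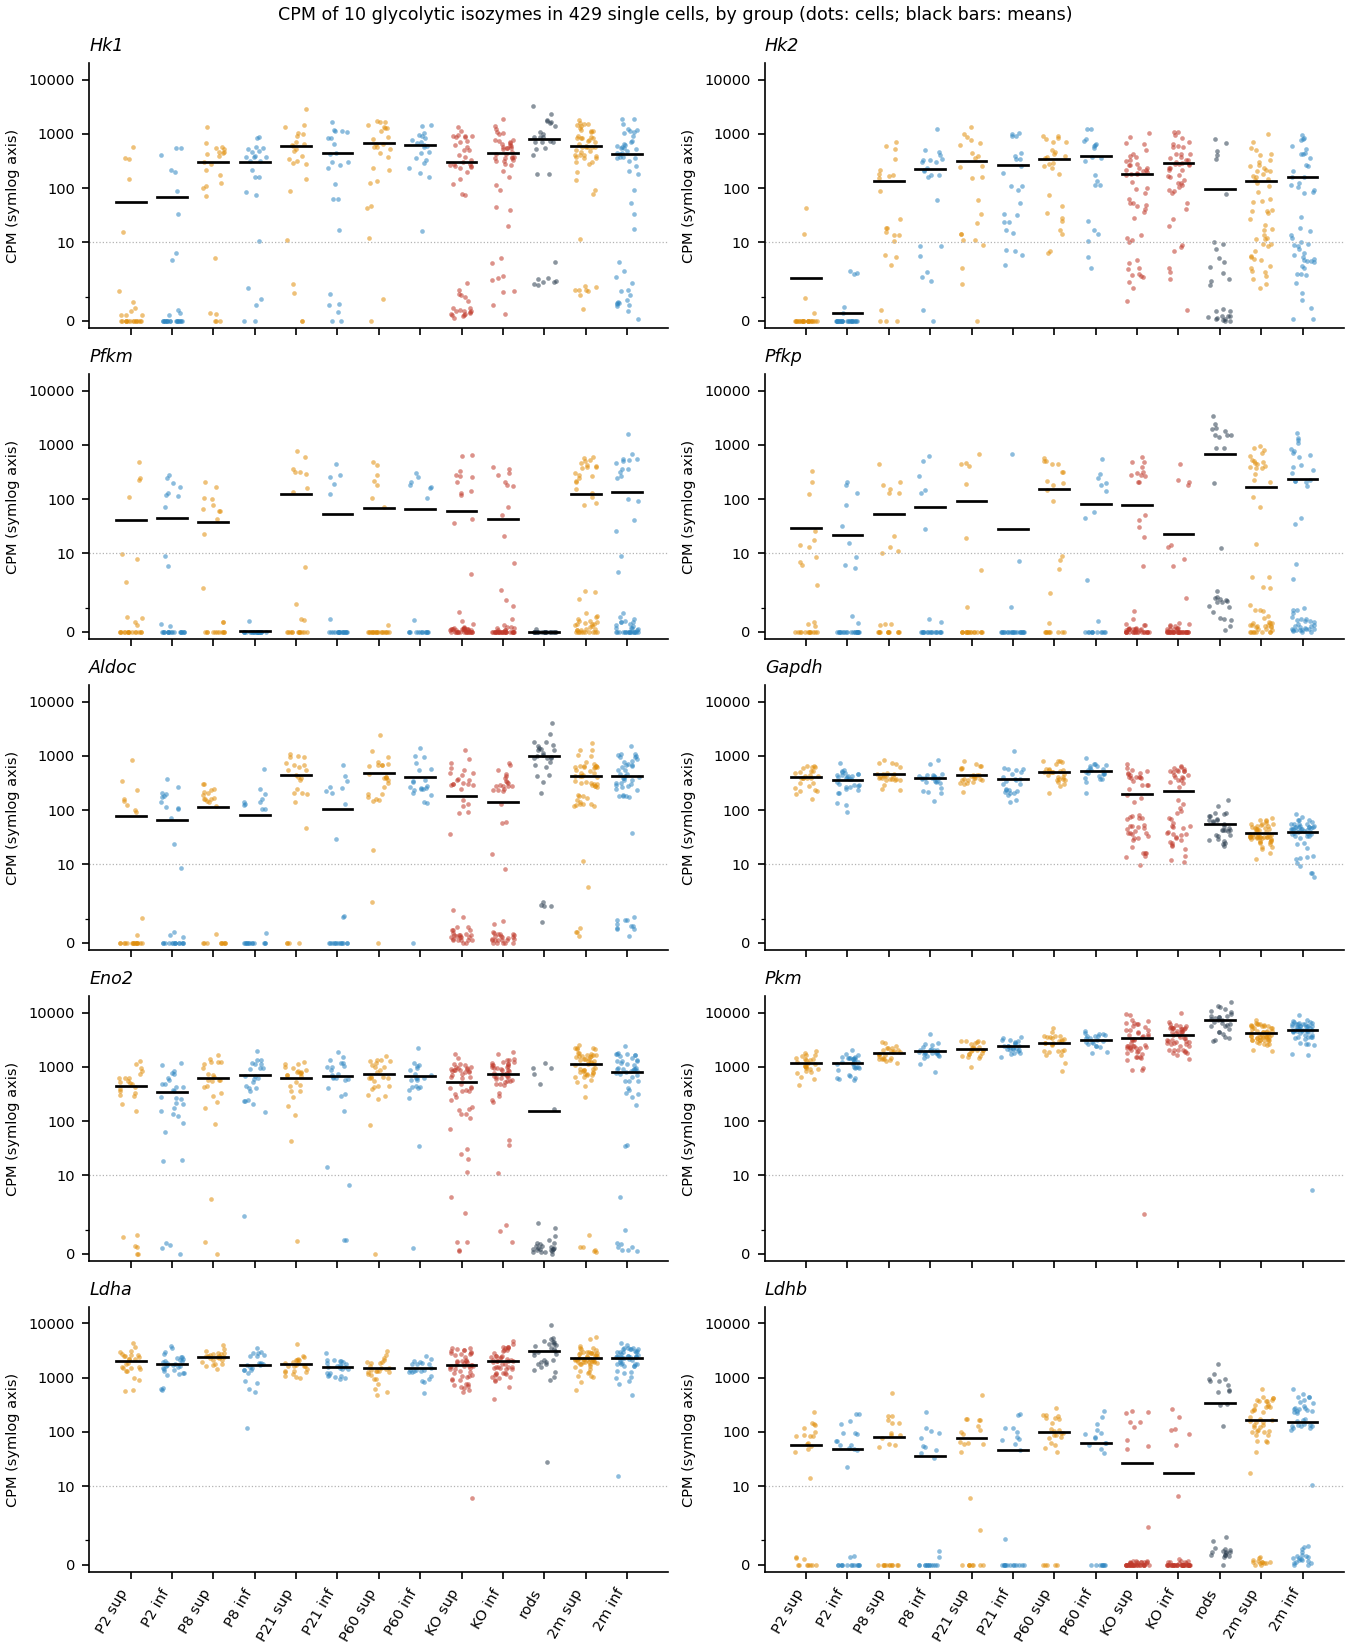
Each dot is 1 cell and each black bar the mean of its group. The y axis of each gene is CPM (linear near 0, logarithmic above 1), and the dotted line marks 10 CPM. Control cones are orange (sup, superior) and blue (inf, inferior), knockout (KO) cones red and rods dark. Hk2 is near 0 in P2 cones and spread up to 1358 CPM later. Ldhb and Aldoc have many knockout cells near 0, Gapdh splits the knockout cells into an upper and a lower cloud, and Pfkm is absent from rods but for 2 reads.

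Of 13 measured genes of other glycolytic steps (25 listed), 0 met the 4-fold rule between P2 and adulthood in either direction. Of 13 genes for the fates of pyruvate and lactate (17 listed), 2 rose and 0 fell. Slc16a1, a transporter that carries lactate across the cell membrane, averaged 60.4 and 18.6 CPM at P2 and 606 and 571 CPM at P60. Got1, an aminotransferase of the shuttle that moves reducing power into mitochondria, averaged 111 and 109 CPM at P2 and 755 and 754 CPM at P60. Of 6 measured regulators (8 listed), 1 rose and 0 fell. That gene was Nxnl1, with 9.49 and 12.1 CPM at P2 and 281 and 341 CPM at P60. It encodes rod-derived cone viability factor, and its 1 row does not tell transcript forms apart. Cones at P8 also carried more rod marker RNA than cones of other ages, with medians of 5206 (superior) and 2654 (inferior) CPM. Without cells over 5000 CPM of the rod markers the same 3 members rose from P2 to adulthood and 0 fell. That rule uses no P8 cell. Of the cells it uses, the filter kept 19 of 21 inferior P60 cones, 48 of 50 inferior 2m control cones and all others. The part of rod RNA in the step from P2 to P8 was not tested. Müller glia marker RNA, taken as a sum, was higher at P2 than at P60. The 6 measured markers of 9 had a median sum of 874 (highest 2915) and 867 (highest 1793) CPM at P2 and of 455 (highest 2300) and 592 (highest 1187) CPM at P60. Single markers differed in direction. Apoe averaged 647 and 697 CPM at P2 and 35.05 and 38.35 CPM at P60. Rlbp1 averaged 30.4 and 17.2 CPM at P2 and 12.8 and 21.8 CPM at P60, so it was higher at P60 in inferior cones. Clu averaged 106 (superior) and 84.3 (inferior) CPM at P2, and 308 CPM at P8 in superior cones. It was higher at P60 than at P2 in both zones. In 2m controls the median sum was 788 and 954 CPM. Leaving out cells over 100 CPM of Rlbp1, Glul, Slc1a3 and Vim together kept 13 of 26 superior and 18 of 30 inferior P2 cones, and the same 3 members were then higher and 0 lower. Apoe and Clu were not in this filter, and their part was not tested.

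The knockout comparison sets adult knockout cones against control cones of separate collections, so genotype and collection cannot be told apart. Ldhb and Aldoc were lower in knockout cones in both zones and within both kinds of library. Over all cells, Pfkm, Pfkp, Aldoc and Ldhb were more than 2-fold lower than in 2m controls in both zones, where 2.24% of 4642 genes were lower (104 genes), and Gapdh was higher, where 2.35% were higher. The share of members lower, 4 of 10, is above that of all genes. It is only described, since the members were chosen with earlier results of these data known. Against P60 controls the members past 2-fold were Aldoc, Gapdh and Ldhb, all lower (3.97% of genes), and 0 were higher (3.91%). Within the 2m kind of library the lower members were Pfkm, Aldoc and Ldhb (3.32% of 4332 genes), and within the P60 kind Pfkp, Aldoc and Ldhb (3.68% of 5220 genes). 0 members were higher within the 2m kind (1.13% of genes) or the P60 kind (3.03%). Aldoc and Ldhb met the rule in all 4 within-kind comparisons, as did 41 of 3920 genes (1.05%), and 0 members were higher in all 4, as were 4 genes (0.102%). The 2m and P60 controls are different cells and the knockout cells are split between them, so the 2 kinds share no cell. With kinds set from 20 genes each way, knockout superior cell 35 counts to the 2m kind, where Aldoc (-0.995 in superior cones) and Pfkm (-0.90) were then just short of 2-fold and Ldhb alone was lower (-3.57 in superior cones). Within the P60 kind the lower members were again Pfkp, Aldoc and Ldhb. There is 1 group per genotype, zone and kind, so none of these differences has a replicate or a test.

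Most knockout cones had next to no Ldhb. It was over 10 CPM in 4 of 53 knockout cones of the 2m kind (7.55%, 95% Clopper-Pearson interval 2.09% to 18.2%, counting error only), against 71 of 103 2m controls (68.9%, 59.1% to 77.7%). In the P60 kind the counts were 11 of 45 knockout cones (24.4%, 12.9% to 39.5%) and 34 of 47 P60 controls (72.3%, 57.4% to 84.4%). The median was 0 in knockout cells of both kinds, against 130 CPM in 2m and 77.1 CPM in P60 controls. The highest knockout cell had 269 CPM, against 632 CPM in the controls, so the ranges overlapped. Log2 ratios were -3.53 (superior) and -3.08 (inferior) within the 2m kind, and -1.25 and -1.79 within the P60 kind. Among cells over 10 CPM of the 2m kind, the median was 182 CPM (2 superior) and 228 CPM (2 inferior) in knockout cones, against 169 CPM (40 superior) and 240 CPM (31 inferior) in 2m control cones. Among those of the P60 kind it was 155 CPM (7 superior) and 100.02 CPM (4 inferior) in knockout cones, against 105 CPM (21 superior) and 79.3 CPM (13 inferior) in P60 control cones. The few knockout cells that had Ldhb thus lay inside the control ranges.

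Aldoc showed the same form. It was over 10 CPM in 23 of 53 knockout cones of the 2m kind (43.4%, 29.8% to 57.7%), against 87 of 103 2m controls (84.5%, 76.0% to 90.9%). In the P60 kind it was over 10 CPM in 23 of 45 knockout cones (51.1%, 35.8% to 66.3%), against 44 of 47 P60 controls (93.6%, 82.5% to 98.7%). Means were 188 ± 288 (superior) and 159 ± 229 CPM (inferior) in knockout cells of the 2m kind, against 424 ± 357 and 419 ± 372 CPM in 2m controls. In knockout cells of the P60 kind they were 176 ± 254 and 121 ± 152 CPM, against 491 ± 499 and 410.2 ± 337 CPM in P60 controls. Log2 ratios were -1.17 and -1.39 within the 2m kind, and -1.47 and -1.75 within the P60 kind. Knockout superior cell 35, the library poor in cone markers, held 864 CPM of Aldoc, and without it the mean of its kind and zone was 145 CPM. Among cells over 10 CPM of the 2m kind, knockout cones had medians of 355 CPM (12 superior) and 311 CPM (11 inferior), against 408 CPM (48 superior) and 417 CPM (39 inferior) in 2m control cones. In the P60 kind the medians were 301 CPM (12 superior) and 276 CPM (11 inferior) in knockout cones, against 396 CPM (24 superior) and 271 CPM (20 inferior) in P60 control cones.

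The phosphofructokinases differed between kinds of library. Pfkm was over 10 CPM in 7 of 53 knockout cones of the 2m kind, against 37 of 103 2m controls, with log2 ratios of -1.06 and -3.31. Within the P60 kind it was over 10 CPM in 15 of 45 knockout cones, against 14 of 47 P60 controls, with log2 ratios of -0.11 and 0.24. Pfkp was over 10 CPM in 10 of 53 knockout cones of the 2m kind, against 40 of 103 2m controls (-0.97 and -3.60). Within the P60 kind the counts were 11 of 45 knockout cones and 20 of 47 P60 controls (-1.04 and -1.45). Knockout superior cell 35 held 604 CPM of Pfkp, the highest of all knockout cells, against a mean of 73.1 CPM in its kind and zone.

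Gapdh differed little between genotypes within a kind of library. Over all cells its log2 ratio was 2.34 and 2.46 against 2m controls and -1.35 and -1.24 against P60 controls. Within the 2m kind it was 0.09 and 0.11 (0.74 in superior cones with knockout superior cell 35 counted to this kind), and within the P60 kind -0.40 and -0.28. Hk2 had 0.21 and 0.74 within the 2m kind and -0.64 and -0.27 within the P60 kind, so its sign differed between them. Pkm (from -0.47 to 0.15) and Ldha (from -0.22 to 0.13) had no ratio past 2-fold within either kind. Hk1 had -0.98 (superior) and -0.05 (inferior) within the 2m kind and -1.14 and -0.41 within the P60 kind. Eno2 had -0.98 and -0.33 within the 2m kind, and -0.63 and 0.39 within the P60 kind. For both genes the superior value was the lower one in each kind, and whether the zones differ was not tested.

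**Figure D3:**
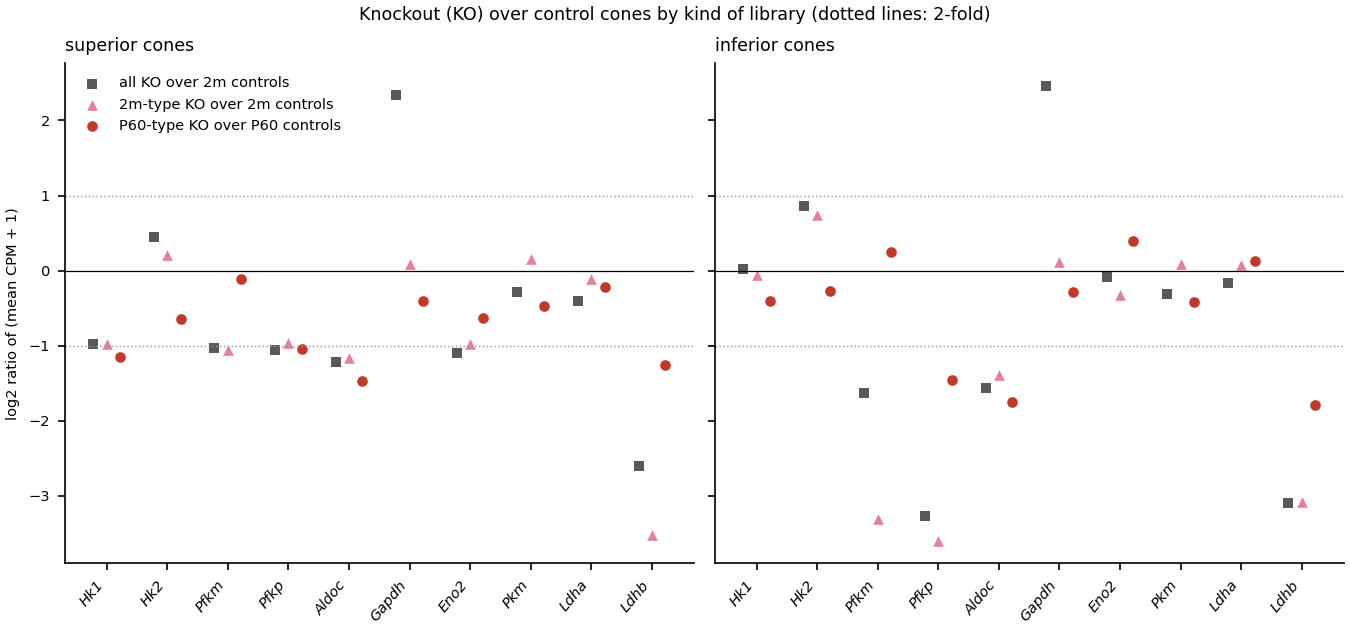
Log2 ratio of (mean CPM + 1) of knockout over control cones for each member, in superior (left) and inferior (right) cones. Grey squares compare all knockout cells with 2m controls, pink triangles knockout cells of the 2m kind with 2m controls, and red circles those of the P60 kind with P60 controls. Dotted lines mark 2-fold. Aldoc and Ldhb lie under the lower line in every comparison, and Gapdh, at 2.34 and 2.46 over all cells, lies near 0 within each kind.

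Of the 3 lists of other pathway genes, 0 of 13, 0 of 13 and 0 of 6 measured genes met the 2-fold rule over all knockout cells against 2m controls, or within the 2m kind. Within the P60 kind, 1 glycolytic gene, Eno1, was lower (-1.06 and -1.15), and 1 gene of the second list, Slc16a1, was lower (-1.79 and -1.28). Slc16a1 had -0.53 and -0.57 within the 2m kind. Bipolar cell markers (2 of 5 measured) had mean sums of 376 (0 to 2045) and 316 (0 to 1501) CPM in knockout cells. The same sums were 32.3 (0 to 792) and 210.4 (0 to 2138) CPM in 2m controls, and their part in the result was not tested. Müller glia markers (6 of 9 measured) had mean sums of 588 (0.8 to 2649) and 666 (0.252 to 2566) CPM in knockout cells, and of 964 (0.289 to 2972) and 1108 (1.28 to 4304) CPM in 2m controls. Single markers differed in direction, and Apoe had a higher mean in knockout cells than in 2m controls in both zones. Rlbp1, Vim and Slc1a3 had lower means there in both zones. The part of the summed glia markers was not tested either. Without the 2 libraries poor in cone markers, or without cells over 100 CPM of the 4 glia markers named above, the same 4 members were lower and Gapdh higher over all cells.

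P60 and 2m controls, which have the same genotype and nearly the same age, give the size of difference between 2 collections. Their libraries are also of different kinds. Hk2 and Gapdh were more than 2-fold higher in P60 controls in both zones, where 5.3% of 4958 genes were higher, and 0 members were lower (5.37% of genes). Hk2 had log2 ratios of 1.32 and 1.26, and Gapdh 3.69 and 3.70. Ldhb had -0.72 and -1.32, and Aldoc 0.21 and -0.03. The Aldoc differences of the knockout within each kind are larger than this 1 difference between collections in both zones. Other control groups differed in Aldoc by more, with 1.94 for P60 over P21 in inferior cones (0.17 in superior cones). Superior minus inferior cones at P21 gave 2.03. The Ldhb difference of the P60 kind in superior cones (-1.25) is smaller than that between the P60 and 2m collections in inferior cones. Genotype and collection cannot be told apart for either gene. In the other glycolytic list 3 of 13 genes, Gpi1, Pgk1 and Eno1, were lower in P60 controls.

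Rods were compared with 2m control cones, whose libraries are of the same kind. At 4-fold against both zones, 0 members were higher (1.75% of 3533 genes) and 2 were lower, Pfkm and Eno2. The rule called 25.2% of all genes lower (889 genes), so 2 of 10 members lower is near the background. The median log2 ratio of all genes was -0.86 against superior and -0.81 against inferior cones, while 7 of the 10 members had a positive ratio, with a median over the members of 0.48 and 0.57. The rods are 1 group from another reporter line, so the comparison has no test.

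Pfkm was all but missing from rods. All 29 rods together held 2 reads of it (95% Poisson interval 0.242 to 7.22), against 97887 reads in superior and 85387 in inferior 2m control cones. Per read sequenced, rods had 2.95e-05 times the superior cone level (interval 3.57e-06 to 0.000106, counting error only, without the spread among cells). It was over 10 CPM in 0 of 29 rods, which allows a share of up to 10.3% by the same limit of 3 cells (11.9% as a Clopper-Pearson bound), against 21 of 53 superior and 16 of 50 inferior control cones. The cones themselves were mixed, with medians of 0.613 and 0.354 CPM and highest cells of 591 and 1571 CPM. Its sister Pfkp was over 10 CPM in 13 of 29 rods, against 20 of 53 and 20 of 50 cones, and in rods that had it the median was 1510 CPM, against 430 CPM (superior) and 406 CPM (inferior) in cones. The log2 ratio of its means was 2.01 and 1.55. The liver-type gene Pfkl was over 10 CPM in 17 of 29 rods, against 43 of 53 and 36 of 50 cones.

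Eno2 was over 10 CPM in 6 of 29 rods (20.7%, 7.99% to 39.7%), against 47 of 53 superior (88.7%, 77.0% to 95.7%) and 41 of 50 inferior cones (82.0%, 68.6% to 91.4%). The median was 0.313 CPM in rods, against 1132 and 809 CPM in cones, yet the 6 rods that had it reached 165 to 1184 CPM, inside the range of the cones. The log2 ratio of means was -2.85 and -2.36. Hk2 was over 10 CPM in 7 of 29 rods, against 37 of 53 and 27 of 50 cones, with medians of 1.92 CPM in rods, against 38.3 and 12.9 CPM. Its ratio of means was -0.48 and -0.71, since those 7 rods had a median of 404 CPM. Hk1 was over 10 CPM in 21 of 29 rods, against 45 of 53 and 34 of 50 cones, with a ratio of 0.40 and 0.88.

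At a 2-fold threshold Pfkp, Aldoc and Ldhb were higher in rods (5.92% of genes), and Pfkm and Eno2 lower (40.7% of genes). Aldoc had a median of 912 CPM (0.847 to 4046), against 334 CPM (0.264 to 1718) in superior and 335 CPM (0.261 to 1543) in inferior cones, with log2 ratios of 1.23 and 1.24. Ldhb was over 10 CPM in 13 of 29 rods, against 40 of 53 and 31 of 50 cones, but its mean was 339 ± 473 CPM in rods, against 166 ± 154 and 156 ± 165 CPM in cones (1.03 and 1.11). Rods that had it held a median of 745 CPM, against 169 and 240 CPM in such cones. Pkm averaged 7400 ± 3216 CPM in rods, against 4171 ± 1246 and 4736 ± 1634 CPM in cones. Ldha averaged 3067 ± 1821 CPM in rods, against 2321 ± 948 and 2316 ± 935 CPM, and Gapdh 56.0 ± 29.7 CPM, against 37.7 ± 13.5 and 39.6 ± 18.2 CPM. All these ranges overlapped between rods and cones. The summed CPM of the 10 members averaged 13579 ± 3781 in rods, against 9266 ± 1970 and 9415 ± 2694 in cones.

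Müller glia marker RNA, taken as a sum, was also higher in rods. Single markers differed, and Clu was lower in rods than in both cone groups. Rlbp1 was over 10 CPM in 15 of 29 rods, Vim in 3 and Slc1a3 in 1. The 6 measured glia markers summed to a mean of 2592 CPM in rods (0 to 9784), against 964 CPM (0.289 to 2972) in superior and 1108 CPM (1.28 to 4304) in inferior cones. Rods over 10 CPM of Pfkp had a median of 750 CPM of 4 of these markers (Rlbp1, Glul, Slc1a3 and Vim), and the rods without had 55.2 CPM. Aldoc went the same way, with 749 CPM in the 24 rods over 10 CPM and 3.76 CPM in the other 5. For Ldhb the medians were 750 CPM in rods over 10 CPM and 717 CPM in the rest, and for Eno2 718 and 749 CPM. For Hk1 and Hk2 they ran the other way, with 79.3 CPM in the rods over 10 CPM for each gene, and 1318 CPM (Hk1) and 854 CPM (Hk2) in the rest. Leaving out cells over 100 CPM of those 4 markers left 12 rods and 36 cones of each zone. In these cells Pfkp averaged 401 CPM in rods, against 162 and 260 CPM in superior and inferior cones. Aldoc averaged 663 CPM in rods, against 455 and 325 CPM, and Ldhb 364 CPM, against 161 and 148 CPM. Of the 3, Ldhb alone was then more than 2-fold above both zones. Eno2 averaged 139.8 CPM in these rods, against 983 and 884 CPM in the cones, and Pfkm 0 CPM, against 101 and 133 CPM. Of the pathway lists, 0 of 13, 0 of 13 and 1 of 6 measured genes met the 4-fold rule. That gene was Hif1a, the oxygen-regulated activator of glycolytic genes, with a mean of 40.9 CPM in rods, against 277 and 340 CPM in superior and inferior cones.

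**Figure D4:**
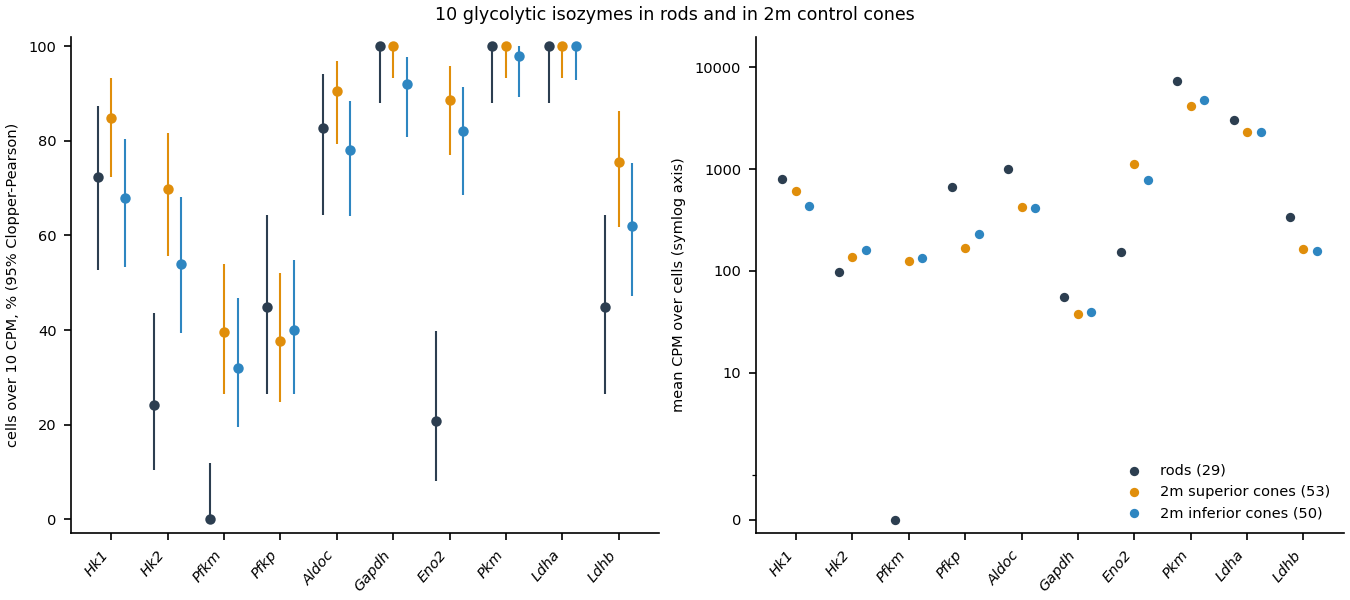
Left, share of cells over 10 CPM for each member in rods (dark), superior (orange) and inferior (blue) 2m control cones, with 95% Clopper-Pearson intervals. Right, mean CPM over the same cells (linear near 0, logarithmic above 1). Rods have no cell over 10 CPM of Pfkm and 20.7% of cells over 10 CPM of Eno2, while their Pfkp, Aldoc, Pkm and Ldhb means lie above those of both cone groups.

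Superior and inferior control cones were compared across the 5 collections, each of which gave a superior and an inferior group mean. 0 of 10384 genes passed an adjusted p of 0.05 (limma on log2(mean CPM + 1) with collection as a block, Benjamini-Hochberg), and 718 had an unadjusted p under 0.05. 0 of the 10 members passed (0% of all genes). The members closest to it were Ldhb (superior minus inferior 0.59, SE 0.23, adjusted p = 0.715) and Aldoc (0.61, SE 0.28, adjusted p = 0.72). Both were higher in superior cones in 5 of 5 collections. Ldha was higher there in 5 of 5 (0.16, SE 0.09, adjusted p = 0.77), and Pkm in 0 of 5 (-0.14, SE 0.07, adjusted p = 0.762). In all, 9 of 10 members had a positive difference, as did 59.7% of all genes, with a median of 0.16 over the members and 0.09 over all genes.

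Single collections set some of these differences. Pfkm differed by 5.25 at P8, since it was over 10 CPM in 10 of 24 superior and 0 of 24 inferior P8 cones, which allows a share of up to 12.5% (3 cells of 24). Those 24 inferior cones held 1 read of it in all, against 2740 reads in the superior ones. The ratio per read sequenced was 0.000514 (interval 1.3e-05 to 0.00286, counting error only, without the spread among cells). In the other 4 collections the Pfkm difference lay between -0.10 and 1.18. Aldoc differed by 2.03 at P21, and by 0.02 to 0.51 in the other 4. Of the 3 pathway lists 0 genes passed, and Slc16a1 came closest (0.63, SE 0.22, adjusted p = 0.715).

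Isozyme use was described by the share of a pair's CPM that came from 1 gene, which can be compared between groups without transcript lengths. Hk2 gave 3.79% (superior) and 0.447% (inferior) of the hexokinase pair at P2, 31.3% and 43.4% at P8, 34.8% and 37.4% at P21, and 33.3% and 38.2% at P60. It gave 37.6% and 39.7% in knockout cones, 10.9% in rods, and 18.4% and 26.9% in 2m controls. Within each kind of library and zone the knockout values lay between 33.9% and 41.4%.

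Ldhb gave 2.75% and 2.54% of the lactate dehydrogenase pair at P2, 3.15% and 2.01% at P8, 4.23% and 2.80% at P21, and 6.34% and 4.01% at P60. It gave 1.49% and 0.833% in knockout cones, 9.95% in rods, and 6.67% and 6.31% in 2m controls. In knockout cells of the 2m kind it gave 0.626% and 0.714%, and in those of the P60 kind 3.15% and 1.04%. Per cell, over cells with at least 10 CPM of the pair, Ldhb was under 1% of it in 40 of 49 superior and 42 of 48 inferior knockout cones, in 16 of 29 rods, and in 14 of 53 and 20 of 50 2m control cones. In 1 rod, the one with the lowest Ldha, it reached 92.1%, and in 0 cones did it pass 50%.

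**Figure D5:**
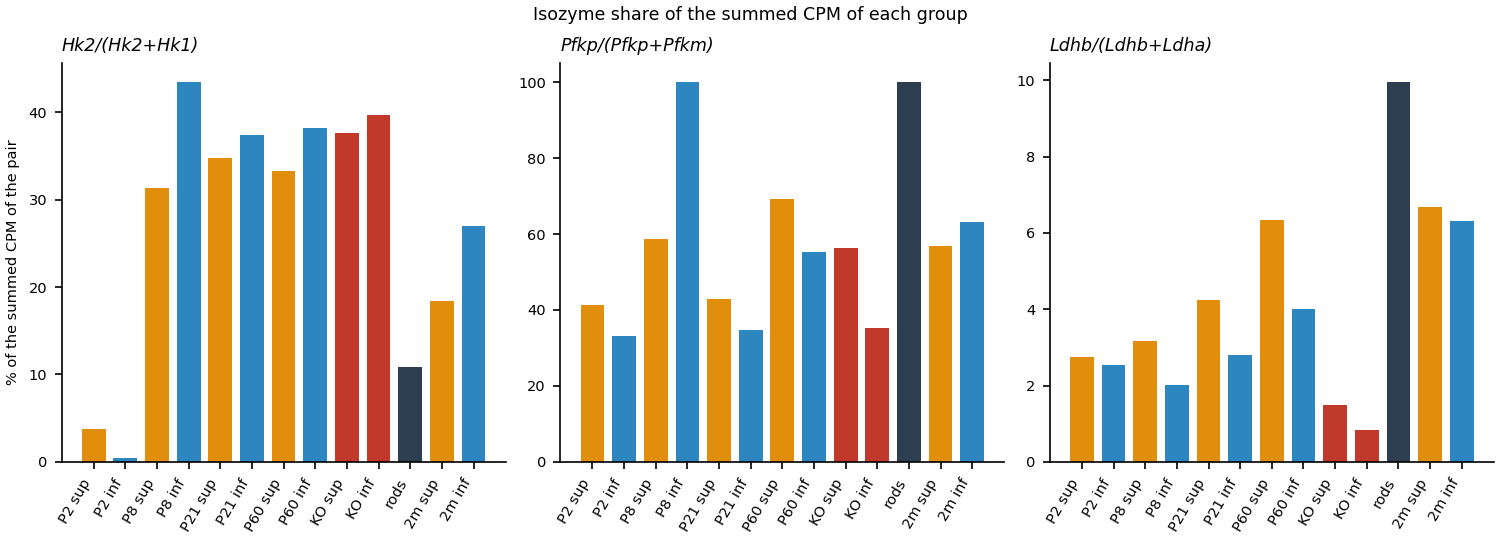
Share of the summed CPM of an isozyme pair from Hk2 (left), Pfkp (middle) and Ldhb (right) in each group (sup, superior; inf, inferior; KO, knockout). The bars start at 0 and have no error bars, as each group is 1 sample. Hk2 is under 4% at P2 and over 30% from P8 to P60, Pfkp is close to 100% in rods and in inferior P8 cones, and Ldhb is under 2% in both knockout groups.

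In single cones, Pfkp and Pfkm were each found in a minority of cells. Of 400 cones, 29 had both over 10 CPM, 88 had Pfkp alone, 79 had Pfkm alone and 204 had neither. The product of the 2 shares gives 31.6 cones with both, so the pair was found together about as often as their shares give. In 2m controls 16 of 103 cones had both, against 14.4 from the shares, and in P60 controls 2 of 47, against 5.96. Hk2 and Hk1 were both over 10 CPM in 61 of 98 knockout cones, against 56.3 from the shares, in 53 of 103 2m controls, against 49.1, and in 41 of 47 P60 controls, against 41.2. Over all 400 cones, whose ages differ in both shares, 213 had both, against 183 from the shares. Aldoc and Ldhb were both over 10 CPM in 3 of 53 knockout cones of the 2m kind, against 1.74 from the shares. In the P60 kind it was 7 of 45, against 5.62 from the shares. Controls had both in 63 of 103 2m cones, against 60.0 from the shares, and in 32 of 47 P60 cones, against 31.8. At 10 CPM a gene with no reads in a cell may still be expressed, since a single cell yields only part of its transcripts. Ldhb was over 10 CPM with Ldha under it in 0 of 400 cones, which was all but fixed, as Ldha was over 10 CPM in 399. Both were over 10 CPM in 198 cones, against 197.5 from the shares.

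Over the 13 groups, the genes with the most similar pattern to each member were found by Pearson's r of log2(mean CPM + 1) among 10356 genes. The groups share library kind and depth, so the values describe only these groups. Hk1 was closest to Cplx4 and Cabp4, photoreceptor synapse genes (0.97 each), and Hk2 to Uckl1 (0.97) and the phototransduction gene Guca1a (0.96). Pfkp and Aldoc were among each other's nearest 2 (0.87), Pfkp beside Orc4 (0.86) and Aldoc beside Vmp1 (0.91). Ldhb was closest to Asap3 (0.86) and Pfkp (0.83). Pfkm was closest to Tmem38b (0.97) and Asic3 (0.96), Eno2 to Ppm1j (0.95) and Abcb4 (0.94), and Pkm to Hist1h2bh (0.96) and Gpr108 (0.96). Ldha was closest to Tbca and Dnttip1 (0.91 each), and Gapdh to Aldoart2 (0.98) and BC048507 (0.94).

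The region lists give other readouts of the same genes. ChAP regions mark where the biotin-tagged receptor was captured in whole E18 retina, and ATAC regions, labelled induced or suppressed, come from P30 cone nuclei of knockout and control mice. Which genotype the words induced and suppressed refer to is not given in the sources used here. Within 50 kb of a gene (GRCm38), ChAP regions lay near 4 members, against 39% of 10146 placed genes, induced ATAC regions near 5, against 35.5%, and suppressed ones near 0, against 13.1%. With 10 genes these counts are near the background.

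The ChAP region nearest to a member lay 2774 bp before the start coordinate of Ldha (chr7:46842274-46855627), at chr7:46839201-46839500. The Hk1 region at chr10:62416353-62416652 lay 36433 bp past the end coordinate of the gene and inside an induced ATAC region, chr10:62416332-62416731. Near Pfkm, a ChAP region at chr15:98029930-98030229, 62360 bp before the start coordinate, also lay inside an induced ATAC region (chr15:98029672-98030495). Hk2 held 2 induced ATAC regions inside its own interval, at chr6:82764731-82764965 and chr6:82771227-82771516, and Pfkm 1, at chr15:98111875-98112135. For the members lower in knockout cones within both kinds of library, Aldoc had a ChAP region 17529 bp past its end coordinate (chr11:78345310-78345609) and no ATAC region within 50 kb. Ldhb had an induced ATAC region 31832 bp before its start coordinate (chr6:142457959-142458417), and its nearest ChAP region was 658776 bp away. Pfkp had none of the 3 kinds of region within 100 kb.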

How the data were processed

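SMART-Seq v4 and ThruPLEX libraries of single cells were sequenced, per the labels' protocols. Reads were handled with bcl2fastq 2, STAR 2.7.3a and MACS2 2.2.7.1 on GRCm38/mm10, per the submitters' processing notes; the counting tool is not given in the sources used here. The RNA values were deposited by the authors in CPM, and all values above 0 (100%) were whole multiples of 1 read within 0.1 reads. The listed genes hold 80.0% to 93.0% of each library's scaled total. The ChAP list was deposited with a p-value column, used here only to rank regions.

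Members and lists were chosen with earlier results of these data known. The named genes are the 10 members, list genes that met a comparison's rule, and the 2 genes most like each member. Group means of CPM were compared by size: a log2 ratio of (mean CPM + 1) past the threshold in both zones, with at least 10 CPM and over 1 CPM in 25% of cells in the higher group. Zones were tested with limma 3.58.1 (genes of at least 5 CPM), with edgeR 4.0.16 and DESeq2 1.42.0 on recovered counts, summed by group from the deposited CPM, as alternatives. The rules were tested on simulated data. Depth limits the precision as the intervals show, for counting error only. Superior and inferior groups of a collection share their age and not a stated animal, and the collection was the block.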

Additional observations from a re-analysis of the deposited data

Results flagged for a closer look

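The superior minus inferior difference of Pfkm in the P8 collection, 5.25 on the log2 scale, stood far from those of the other 4 collections (-0.10 to 1.18), with a gap of 0.76 of the whole range against a critical value of 0.71 for 5 values. The Aldoc difference of the P21 collection, 2.03, stood far from the others (0.02 to 0.51) with a gap of 0.757 of the range. Of 10 members looked at, these were 2, and for each gene chance gives such a gap in about 1 of 20 sets of 5 values. The size of the Pfkm value depends on the 1 CPM added to each mean, since the inferior P8 mean was 0.0184 CPM. Pfkm was over 10 CPM in 10 of 24 superior and 0 of 24 inferior P8 cones, and Aldoc in 20 of 24 superior and 9 of 24 inferior P21 cones.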

How the results depend on the processing

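In the zone comparison 0 genes passed in the analysis reported, without any 1 collection (0 to 0), with pseudocount 10, with no filter and with edgeR. With the mean of log2(CPM + 1) over cells 15 passed, with no replicate block (the pairing by collection left out) 2, and with DESeq2 269, and 0 members were among them in any setting; the cause was not tested. The Hk2 zone difference turned to -0.12 with pseudocount 10, -0.0825 with averaged logs, and lay between -0.22 and 0.285 when 1 collection was left out (-0.22 without P2). Members higher with age were 3, but 4 (Pfkp added) with trimmed means and with TMM factors, and 5 at 2-fold. Members lower in the knockout were 4, and 2 with pseudocount 10, which left Aldoc and Ldhb, and 1 (Ldhb) within the 2m kind when kinds were set from 20 genes each way. Members higher in the knockout were 1, and 0 against P60 controls and within either kind of library, also with kinds set from 20 genes each way, all chosen after seeing the data except the P60 controls. Gapdh turned to -1.35 and -1.24 against P60 controls and to -0.40 and -0.28 within the P60 kind (-0.46 and -0.28 with kinds from 20 genes), and Pfkm in inferior cones to 0.24 (0.24). In rods the higher members were 0, but 1 (Pfkp) with trimmed means, 1 (Pfkp) with TMM factors and 3 at 2-fold, and the lower members were 2, but 1 (Pfkm) with TMM factors, and with averaged logs Hk2 and Eno2 in place of Pfkm and Eno2. Induced ATAC regions lay near 2 members within 10 kb and 8 within 100 kb, suppressed ones near 1 within 100 kb, and ChAP regions near 1 within 10 kb. Thinning every cell to 800000 reads moved no share of cells over 10 CPM by more than 6 points. Each group is 1 sample, animals are not named, and knockout and control cells of the 2m kind, like those of the P60 kind, are separate collections, so genotype and collection cannot be told apart.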
